A study of Rattus norvegicus with 20 samples.

Results

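The genes described here encode stromal collagens and decorin, and their transcripts were followed in the choroid plexus of female Zucker rats. Of the 5 genes chosen (Col1a1, Col1a2, Col3a1, Col14a1 and Dcn), 3 could be matched to one of the 32883 Ensembl identifiers of the files, namely Col1a1 (ENSRNOG00000003897), Col14a1 (ENSRNOG00000026415) and Dcn (ENSRNOG00000004554). The tables used here to name genes pair 2616 of the identifiers with a symbol. Those tables give no identifier for Col1a2 and Col3a1, which were not analysed here, so nothing below describes these genes.

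The RNA came from 20 rats, 1 library each, all sampled at 16 weeks of age. Untreated lean rats (rats 1 to 6) carried 1 intact and 1 mutant copy of the leptin receptor gene (+/fa), and untreated obese rats (rats 7 to 12) carried only mutant copies (fa/fa). A separate cohort was injected subcutaneously during the weeks before sampling. Its 4 lean control rats (rats 13 to 16) received sesame oil, and its 4 obese + TT rats (rats 17 to 20) received testosterone propionate in sesame oil. The cohort holds no injected obese rat without testosterone and no lean rat with it, so obesity and testosterone cannot be told apart within it. Choroid plexus of the lateral and the fourth ventricle was taken, and the estrous cycle was not controlled.

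The choroid plexus is a sheet of secretory epithelium folded over a stromal core with fibroblasts and leaky capillaries. Fibroblasts build the fibres of such a core. Col1a1 encodes a chain of type I collagen, the main fibre-forming collagen, and Col14a1 encodes type XIV collagen, which sits on the surface of collagen fibrils. Dcn encodes decorin, a small leucine-rich proteoglycan that binds collagen fibrils, regulates their width and can bind the growth factor TGF-beta.

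Values are in TPM (transcripts per 1000000), which divide out gene length and sequencing depth, so levels of different genes can be set side by side within a library. How many reads stand behind a level is unknown, and the values were deposited to 0.01 TPM. Between 14968 and 16860 genes lay above 0 TPM in a library. Ttr (transthyretin), the leading secreted protein of the epithelium, took 31.2 to 39.3% of all TPM in the untreated rats and 25.8 to 30.5% in the injected rats, and all 10 epithelial markers examined were detected. In these whole-tissue samples, fewer cells of a type and less RNA per cell cannot be told apart.

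Dcn was the most abundant of these genes in all groups, and Col1a1 stood far below it. In the lean rats, the mean level was 92.5 TPM ± 13.0 (SD, n = 6) for Dcn, 4.92 TPM ± 0.86 (SD, n = 6) for Col1a1 and 0.66 TPM ± 0.12 (SD, n = 6) for Col14a1. Decorin transcripts were thus 18.8 times as abundant as those of Col1a1 and 141 times as abundant as those of Col14a1. In the injected cohort this spacing was narrower for Col14a1, with a ratio of mean Dcn to mean Col14a1 of 10.2 in the lean control rats and 35.2 in the obese + TT rats. Col14a1 stood above Col1a1 in 3 of the 4 lean control rats, and Col1a1 stood above Col14a1 in all rats of the other groups.

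**Figure D1:**
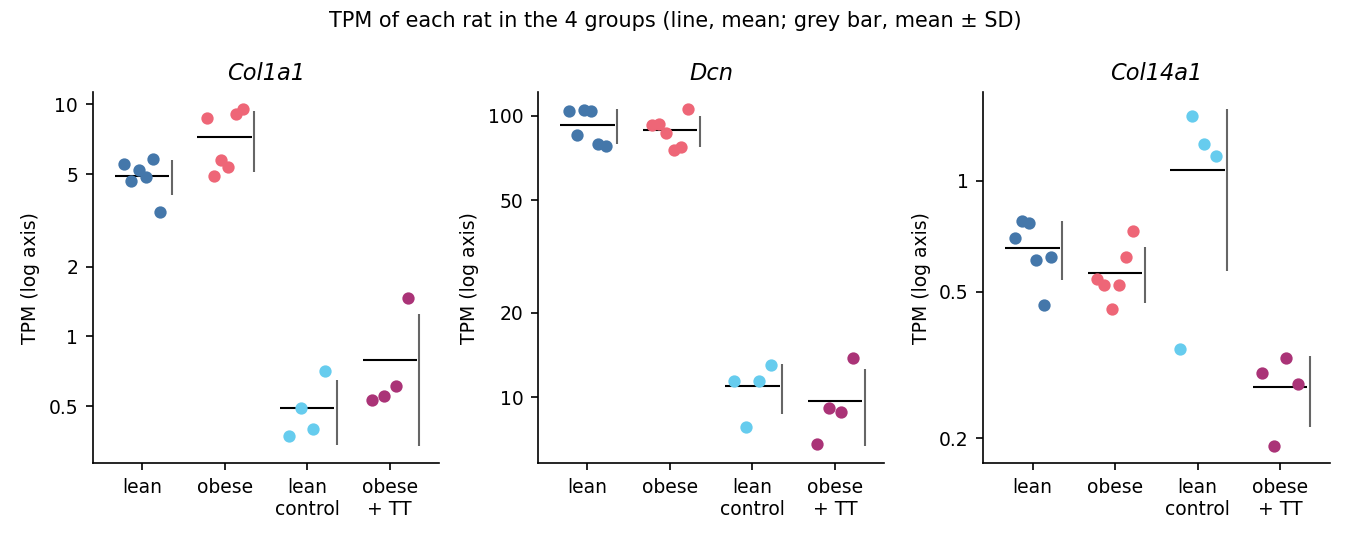
TPM of Col1a1, Dcn and Col14a1 (log axes, a scale of its own for each gene) for each rat in the 4 groups, with the group mean as a black line and the mean ± SD as a grey bar. Col1a1 and Dcn were lower in each injected rat than in each untreated rat, whereas the Col14a1 levels of the lean control rats spanned 0.35 to 1.50 TPM.

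The first comparison asks whether genetic obesity alone goes with a different level of these stromal transcripts. Col1a1 had the largest difference of the 3 genes, with a mean 1.47 times as high in obese as in lean rats (7.23 TPM ± 2.10 against 4.92 TPM ± 0.86, SD, n = 6 each), but it did not pass the test across all genes. Dcn and Col14a1 differed by less than the spread between rats.

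The Col1a1 level of the lean rats ran from 3.42 to 5.84 TPM with a median of 5.03 TPM. The obese rats were at 8.71, 4.93, 5.74, 5.38, 9.07 and 9.57 TPM (rats 7 to 12). Rats 7, 11 and 12 stood above each lean rat, and the other 3 lay within the lean range, so the groups overlapped. The log2 fold change was 0.51 (SE 0.18, 95% interval 0.12 to 0.91). Its unadjusted p was 0.0137 and its adjusted p 0.384 in limma with Benjamini-Hochberg adjustment, and an exact two-sided permutation test of the single gene gave p = 0.0433. The study called Col1a1 with DESeq2 on counts of these same libraries, in either comparison or both, so its unadjusted p is no independent evidence. Of the 15176 genes tested in limma, 0% were called at an adjusted p under 0.05, while 1466 genes (9.66%) had an unadjusted p under 0.05. The study's own test did call genes between these groups. A rise as large as that of Col1a1 was found in 515 genes, 3.39% of those tested.

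For Dcn, the lean rats ran from 78.2 to 104.61 TPM with a median of 94.7 TPM, and the obese rats from 75.51 to 105.49 TPM with a median of 89.8 TPM. Both ranges nearly coincide. The log2 fold change was -0.06 (SE 0.10, adjusted p = 0.901 in limma), and its 95% interval of -0.28 to 0.16 leaves room for only small differences in either direction. Col14a1 ran from 0.46 to 0.78 TPM with a median of 0.66 TPM in lean rats and from 0.45 to 0.73 TPM with a median of 0.53 TPM in obese rats. Its log2 fold change was -0.19 (SE 0.17, 95% interval -0.55 to 0.18, adjusted p = 0.776 in limma).

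The ratio of 2 genes within a library is independent of how that library was scaled. The ratio of Col1a1 to Dcn was 0.0437 to 0.0739 in the lean rats and 0.0527 to 0.117 in the obese rats. It was higher by 0.58 on the log2 scale in obese rats (exact two-sided permutation test, p = 0.0238, unadjusted, 1 of 8 such ratio tests), although the groups overlapped. The p of this ratio stayed under 0.05 when each of the 12 rats was left out in turn, with differences of 0.47 to 0.70. Dcn hardly differed, so the ratio repeats the difference of Col1a1 and is no independent evidence either. The ratio of Col14a1 to Dcn differed by -0.16 on the log2 scale (exact permutation p = 0.286).

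Obese rats 7, 11 and 12 were also the 3 highest of the obese group for 22 of 49 other genes (44.9%). The 49 came from lists on collagen biology and cell types, and 21.8% of all genes tested had the same split. These 3 rats were picked by their Col1a1 levels. The 22 held many matrix genes, such as the fibrillar collagens Col5a1, Col5a2 and Col27a1 and the collagen VI chains Col6a1 and Col6a2. The study listed these collagens from these libraries. Not all stromal genes had the split, and the 22 also held the epithelial markers Kl, Aqp1 and Enpp2 and the endothelial marker Plvap. Dcn was at 93.47 TPM in rat 8 and at 77.6 TPM in rat 11, and Clec3b, a fibroblast marker, was lowest in rat 11. The 3 genes that follow had the split and were picked after their values were seen. Serpinh1, the collagen-specific chaperone of the endoplasmic reticulum, was at 160.71, 148.45 and 162.8 TPM in these 3 rats and at 115.91 to 122.47 TPM in the other 3, against 96.32 to 135.77 TPM in lean rats. Col6a1, a chain of the beaded collagen VI, was at 6.49, 8.2 and 9.36 TPM in rats 7, 11 and 12 and at 5.01 to 5.38 TPM in the others. Tagln, a smooth muscle cytoskeletal protein, was at 90.04, 72.58 and 108.59 TPM in the same rats and at 48.83 to 60.64 TPM in the others. Serpinh1 had a log2 fold change of 0.36 (SE 0.11, adjusted p = 0.302 in limma). Vim, the mesenchymal intermediate filament, had one of 0.42 (SE 0.11, adjusted p = 0.240 in limma), so neither passed the test. The study listed both genes from these libraries, so their differences are no independent evidence.

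Of the 49 list genes, which are those that could be matched, 0 were called between obese and lean rats, 31 were higher and 18 lower, and their median log2 fold change was 0.05 beside 0.02 over all genes tested. All 3 further fibrillar collagens (Col5a1, Col5a2 and Col27a1) were within their spread, with a median log2 fold change of 0.13. Among 5 collagen chaperones and modifying enzymes, Serpinh1 and P4ha2, a subunit of the enzyme that hydroxylates collagen prolines, had an unadjusted p under 0.05 in the higher direction. The fibroblast markers did not move one way: Vim and Clec3b had an unadjusted p under 0.05 and were higher, Dpt (dermatopontin, a matrix protein that binds decorin) was lower at 32.0 TPM ± 3.70 against 38.3 TPM ± 3.37 (SD, n = 6 each, adjusted p = 0.326 in limma), and Pdgfra was between them. Serpinh1, Vim, Clec3b and Dpt are among the genes the study listed from these libraries, so their directions and unadjusted p-values are no independent evidence. The 4 erythroid markers all had an unadjusted p under 0.05 in the higher direction. Their summed level was 3105 to 5471 TPM in lean and 4052 to 7019 TPM in obese rats, and the part of blood in the Col1a1 difference was not tested.

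The second comparison sets testosterone-treated obese rats against vehicle-injected lean rats. Here Col14a1 was the gene that stood out: its mean was 0.28 TPM ± 0.06 in the obese + TT rats against 1.07 TPM ± 0.50 in the lean control rats (SD, n = 4 each), a level 3.89 times as high in the lean controls. It did not pass the test across all genes with all 8 rats. Col1a1 and Dcn differed by less than the spread between rats.

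The obese + TT rats had Col14a1 levels of 0.30, 0.19, 0.33 and 0.28 TPM (rats 17 to 20) and the lean control rats levels of 0.35, 1.50, 1.26 and 1.17 TPM (rats 13 to 16). The groups did not overlap, but rat 13 lay next to the obese + TT rats and far from the other 3 lean controls. Of the 15259 genes tested, 253 (1.66%) were lower in obese + TT rats without overlap and 4.02% were without overlap in either direction. The log2 fold change of Col14a1 was -1.51 (SE 0.41, 95% interval -2.42 to -0.60, unadjusted p = 0.00426, adjusted p = 0.510 in limma). The exact permutation test gave p = 0.0286, which no p from groups of 4 rats can go below. Without rat 13 the log2 fold change was -1.92 and the adjusted p 0.0485 in limma, and without rat 14 they were -1.31 and 0.874. With a pseudocount of 1 in place of 0.1, which weighs down low levels, the log2 fold change was -0.66. A fall as large as with 0.1 was found in 83 genes (0.544%). In this comparison limma called 0% of genes, and 1134 (7.43%) had an unadjusted p under 0.05. The study's DESeq2 test on counts did call genes between these groups. Col14a1, too, is among the genes the study called from these libraries, so its unadjusted p is no independent evidence.

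For Col1a1, the lean control rats were at 0.37, 0.49, 0.40 and 0.71 TPM and the obese + TT rats at 0.53, 0.55, 0.61 and 1.47 TPM. The groups overlapped, and rat 20 was above all others. The log2 fold change was 0.51 (SE 0.35, 95% interval -0.29 to 1.30, adjusted p = 0.786 in limma), and without rat 20 it was 0.19. Dcn was at 11.42, 7.86, 11.41 and 13.07 TPM in lean control rats and at 6.82, 9.19, 8.85 and 13.85 TPM in obese + TT rats, again with rat 20 the highest. Its log2 fold change was -0.20 (SE 0.22, 95% interval -0.68 to 0.28, adjusted p = 0.865 in limma).

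The ratio of Col1a1 to Dcn was 0.0324 to 0.0623 in the lean control and 0.0598 to 0.106 in the obese + TT rats, a difference of 0.79 on the log2 scale (exact permutation p = 0.0571). Without rat 14 it was 0.95 (exact permutation p = 0.0286). The ratio of Col14a1 to Dcn differed by -1.60 on the log2 scale (exact permutation p = 0.0857), and by -2.10 without rat 13 (exact permutation p = 0.0286).

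**Figure D2:**
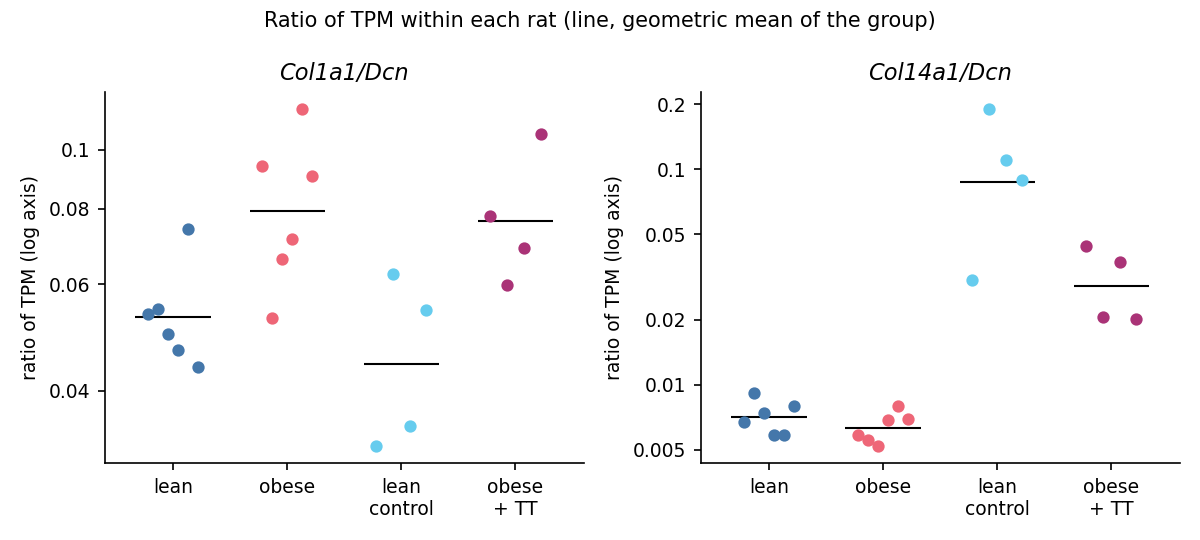
Ratio of the TPM of Col1a1 to Dcn and of Col14a1 to Dcn within each rat (log axes), with the geometric mean of each group as a line. The ratio of Col1a1 to Dcn occupied similar ranges in both cohorts, while the ratio of Col14a1 to Dcn was higher in each injected rat (0.0202 or more) than in each untreated rat (0.00913 or less).

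The other fibrillar collagens were also at lower levels in obese + TT than in lean control rats. Col5a1, a chain of the type V collagen that starts fibrils, was at 2.74 TPM ± 0.62 against 4.74 TPM ± 0.66 (SD, n = 4 each), with a log2 fold change of -0.79 (SE 0.19, adjusted p = 0.404 in limma). Col27a1 was at 33.6 TPM ± 7.45 against 56.8 TPM ± 4.86, and Col5a2 at 5.67 TPM ± 1.28 against 8.16 TPM ± 0.94 (SD, n = 4 each). All 3 had an unadjusted p under 0.05 and none was called, and all 3 are among the genes the study listed from these libraries, so their common direction is no independent evidence. Col6a2, the partner chain of Col6a1, was lower by 0.53 on the log2 scale (adjusted p = 0.375 in limma), whereas Col6a1 differed by 0.01. The smooth muscle genes Tagln and Myh11 were at log2 fold changes of -0.79 and -0.74 with adjusted p-values of 0.510 and 0.375 in limma. Col6a1, Col6a2 and Myh11, too, are among the genes the study listed from these libraries, so their differences are no independent evidence. Over the 49 list genes the median log2 fold change was 0.01, with 25 higher and 24 lower, and 0 were called.

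Of the 4 erythroid markers, 3 had an unadjusted p under 0.05 in the higher direction in the obese + TT rats, and none was called. The summed level of the erythroid markers was 2168 to 5768 TPM in the lean control and 4799 to 8388 TPM in the obese + TT rats. Hba-a1, an alpha globin, was at 3302.78 TPM in rat 13 and at 1213.2 to 1286.82 TPM in the other 3 lean controls. The part of these differences in the Col14a1 result was not tested.

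Whether the obese and lean rats differed in another way in the injected than in the untreated cohort was asked with an interaction term over all 20 libraries. For Col1a1 it was -0.01 (SE 0.36, adjusted p = 0.996) and for Dcn -0.14 (adjusted p = 0.912) in limma. For Col14a1 it was -1.32 (SE 0.39, unadjusted p = 0.00267, adjusted p = 0.366 in limma), and without rat 13 it was -1.73 (adjusted p = 0.0350). With a pseudocount of 1 it was -0.58. Of the 15406 genes tested, 0% were called and 1288 (8.36%) had an unadjusted p under 0.05.

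**Figure D3:**
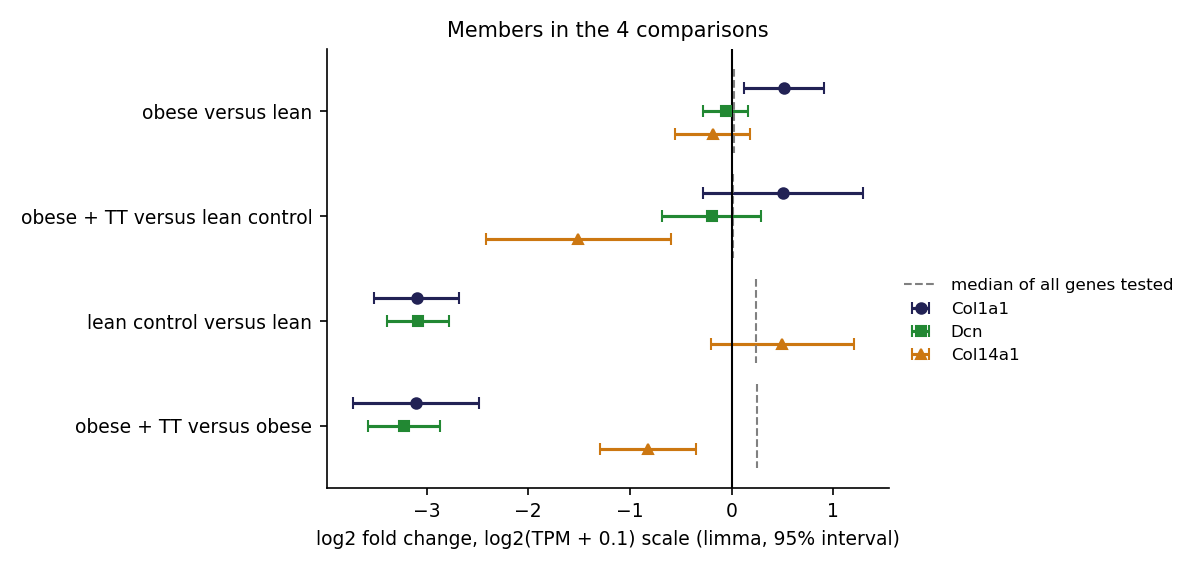
Log2 fold changes of Col1a1, Dcn and Col14a1 on the log2(TPM + 0.1) scale in the 4 comparisons, with 95% intervals from limma and the median of all genes tested as dashed lines. Col1a1 and Dcn lay near -3.1 in both comparisons between cohorts, and Col14a1 lay at 0.50 in one and -0.83 in the other.

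The largest differences were those between the cohorts. Lean control rats were compared with untreated lean rats, and obese + TT rats with untreated obese rats. Injection and, in the obese rats, testosterone change together with the cohort in these comparisons and cannot be told apart. The labels give no date or handling for either cohort, so any such difference could not be told apart either. Col1a1 and Dcn were about an order of magnitude lower in the injected rats of either kind, whereas Col14a1 was called lower in obese + TT than in obese rats and was not called between the lean groups.

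Mean Dcn was 8.46 times as high in lean (92.5 TPM ± 13.0, SD, n = 6) as in lean control rats (10.9 TPM ± 2.20, SD, n = 4). It was 9.16 times as high in obese (88.6 TPM ± 11.1, SD, n = 6) as in obese + TT rats (9.68 TPM ± 2.97, n = 4). The lowest untreated rat had 75.51 TPM and the highest injected rat 13.85 TPM, so no value of one cohort came near the other. Dcn fell by 3.08 on the log2 scale between lean and lean control rats (SE 0.14, adjusted p = 2.36e-08 in limma) and fell by 3.22 between obese and obese + TT rats (SE 0.16, adjusted p = 6.01e-08 in limma).

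Mean Col1a1 was 4.92 TPM in lean and 0.49 TPM ± 0.15 (SD, n = 4) in lean control rats, a ratio of 10.0, and 7.23 TPM in obese and 0.79 TPM ± 0.45 (n = 4) in obese + TT rats, a ratio of 9.16. The lowest untreated rat had 3.42 TPM and the highest injected rat 1.47 TPM. Col1a1 had log2 fold changes of -3.10 (SE 0.19, adjusted p = 1.21e-07) and -3.11 (SE 0.29, adjusted p = 4.97e-06) in limma, and -1.98 and -2.19 with a pseudocount of 1. Accordingly, the ratio of Col1a1 to Dcn differed little between the cohorts, by -0.26 on the log2 scale for the lean rats (exact permutation p = 0.290) and by -0.05 for the obese rats (exact permutation p = 0.829).

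For Col14a1, 3 of the 4 lean control rats stood above the lean range of 0.46 to 0.78 TPM, and rat 13 stood below it. The log2 fold change was 0.50 (SE 0.32, adjusted p = 0.210 in limma), and without rat 13 it was 0.91 (adjusted p = 0.00322). The obese + TT rats, at 0.19 to 0.33 TPM, were all below the obese rats, at 0.45 to 0.73 TPM. Their log2 fold change was -0.83 (SE 0.22, adjusted p = 0.00576 in limma), and it was -0.29 with a pseudocount of 1. The ratio of Col14a1 to Dcn was higher in the injected rats by 3.63 on the log2 scale for the lean and by 2.19 for the obese rats (exact permutation p = 0.00476 each, the lowest value possible for groups of 6 and 4).

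These calls stood against a background of many others. Between lean control and lean rats, 58.2% of 15326 genes were called, 41.7% higher and 16.5% lower, and 10.7% were lower without overlap. Between obese + TT and obese rats, 58.1% of 15389 genes were called, 41.7% higher and 16.4% lower, and 11.7% were lower without overlap. The median log2 fold change of all genes was 0.24 and 0.25, so relative to it Col1a1 stood at -3.34 and -3.35, Dcn at -3.32 and -3.47, and Col14a1 at 0.25 and -1.07. Of the called genes 71.6% and 71.8% were higher with TPM, and 47.2% and 48.0% with TPM divided by median ratios. The 3 genes kept their direction with either scaling. Falls as large as those of Col1a1 and Dcn were less common than calls, with 162 and 165 genes (1.06% and 1.08%) between the lean groups and 176 and 159 genes (1.14% and 1.03%) between the obese groups.

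The order of the 4 groups differed between the genes. For Dcn it ran from lean over obese and lean control to obese + TT rats, and only the step from obese to lean control rats was larger than the spread (exact permutation p = 0.00476, 8.10 times). Lean and obese rats (p = 0.578) and lean control and obese + TT rats (p = 0.457) did not differ beyond their spread in exact permutation tests. Col1a1 ran from obese over lean and obese + TT to lean control rats, with exact permutation p-values of 0.0433, 0.00476 and 0.200 for the successive steps. Col14a1 ran from lean control over lean and obese to obese + TT rats, with exact permutation p-values of 0.205, 0.180 and 0.00476. These p-values are unadjusted, and 18 pairs of groups were compared over the 3 genes.

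Other stromal and vascular genes were lower in the injected cohort together with Col1a1 and Dcn, but not all were. Of the 49 list genes, 9 were called lower and 30 higher between lean control and lean rats, and 11 lower and 25 higher between obese + TT and obese rats. Their median log2 fold change was 0.32 and 0.31, a little above that of all genes. Dpt was at 38.3 TPM ± 3.37 in lean (SD, n = 6) and 2.03 TPM ± 0.55 in lean control rats (SD, n = 4), and its log2 fold changes were -4.21 and -4.41 in the 2 comparisons. Those of Vim were -2.43 and -2.56, and those of Clec3b -2.96 and -3.97. Pdgfra, the PDGF receptor that marks fibroblasts, rose instead, by 1.31 and 1.08, from 25.4 TPM ± 2.99 in lean (SD, n = 6) to 65.1 TPM ± 17.5 in lean control rats (SD, n = 4). All of these passed the test in limma. Matching favoured abundant genes and genes the study listed, so how the matched markers divide does not describe fibroblast markers as a whole.

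Of the vascular markers matched, Plvap, Rgs5 and Tagln fell as far as Col1a1 and Dcn. Plvap, which forms the diaphragms of fenestrated capillaries, was at 39.95 to 51.07 TPM in lean and 1.68 to 10.58 TPM in lean control rats. Rgs5, a pericyte marker, fell from 99.7 TPM ± 11.1 (SD, n = 6) to 5.51 TPM ± 3.85 (SD, n = 4), and Tagln from 55.2 TPM ± 5.40 to 3.50 TPM ± 0.81. Myh11, the myosin of smooth muscle, did not fall with them between the lean groups, with a log2 fold change of -0.14 (adjusted p = 0.390 in limma), but it fell by 1.07 between the obese groups. The summed mural markers were at 147.3 to 192.3 TPM in lean and 13.7 to 21.7 TPM in lean control rats. Only 1 of 10 endothelial, 3 of 10 mural and 4 of 12 fibroblast markers could be matched. Symbols were at hand for abundant genes and for genes the study listed from these libraries. Plvap, Rgs5, Tagln and Dcn were not among the genes it called. They may have been matched through the cohort in which they were high, so their shared fall is no independent evidence. The part of a smaller stromal or vascular share of the tissue in the Col1a1 and Dcn differences was not tested.

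Other matrix genes of the same families went in several directions. The other small leucine-rich proteoglycans matched, Fmod (fibromodulin), Ogn (osteoglycin) and Prelp, were called higher in both comparisons, with log2 fold changes of 0.25 to 0.84 and 0.33 to 1.02. With TPM divided by median ratios, Ogn stood at -0.05 between the lean groups and at 0.04 between the obese groups. Col5a1, Col5a2 and Col27a1 were all called higher between lean control and lean rats, though Col5a2 stood at 0.01 with median ratios. The rise of Col27a1 was by 2.26 on the log2 scale (from 12.2 TPM ± 3.55, SD, n = 6, to 56.8 TPM ± 4.86, SD, n = 4). Between obese + TT and obese rats Col27a1 was again called higher, by 1.36. Col5a1 (-0.29, adjusted p = 0.248 in limma) and Col5a2 (-0.38, adjusted p = 0.0742 in limma) had negative log2 fold changes there and were not called. With median ratios Col5a1 stood at -0.56 and Col5a2 at -0.66 between the obese groups. Thus Col5a1 and Col5a2 had the same signs as Col14a1 in both comparisons, as did Col6a2. Not all of these differences were called. The study listed all of these genes from these libraries, so the shared signs are no independent evidence. Col9a3, a fibril-associated collagen like Col14a1, rose by 0.58 and 0.31 (0.29 and 0.02 with median ratios), and Col8a1, a network collagen, by 0.93 and 0.70 (0.64 and 0.41 with median ratios).

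The 2 collagen VI chains differed in size of change. Col6a1 was at 4.45 to 5.86 TPM in lean and 0.06 to 0.81 TPM in lean control rats and its log2 fold changes were -3.56 and -3.89, about as low as those of Col1a1. Col6a2 was at 12.2 TPM ± 1.06 in lean (SD, n = 6) and 15.4 TPM ± 1.00 in lean control rats (SD, n = 4). Its rise of 0.33 between the lean groups was 0.04 with median ratios. For Col6a2 the obese rats had 13.0 TPM ± 2.59 (SD, n = 6) and those given TT 10.7 TPM ± 1.38 (SD, n = 4), a log2 fold change of -0.27 that was not called (adjusted p = 0.120 in limma) and was -0.55 with median ratios. Both chains are used in the same collagen molecule.

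Genes that act on collagens after transcription were mostly at higher TPM in the injected rats. Serpinh1 rose by 0.88 on the log2 scale between the lean groups and by 0.31 between the obese groups (0.03 with median ratios), and P4ha2 by 0.76 and 0.37 (0.47 and 0.08 with median ratios), while P4hb and Sparc, a matrix protein that binds collagen, were not called. Mmp14, a membrane-bound collagenase, rose by 0.93 and 0.82, and Mmp2, Timp2, Timp3 and the cross-linking enzyme Loxl1 were also called higher in both comparisons. With median ratios the differences were 0.64 and 0.54 for Mmp14, 0.21 and 0.23 for Loxl1, 0.23 and 0.10 for Timp3, 0.01 and 0.12 for Timp2, and 0.04 and 0.05 for Mmp2, so the last 2 were close to 0 between the lean groups. Among the TGF-beta genes, Tgfb2 rose by 1.20 and 1.19 and the binding protein Ltbp3 by 0.77 and 0.84. Ltbp4, another protein of this family, had log2 fold changes of -2.88 and -3.08, and the ligand Tgfb3 of -0.79 and -1.15. Of the 10 epithelial markers, 8 were called higher between the lean groups, and 7 were called higher and Ttr lower between the obese groups. Of all genes tested, 41.7% were called higher in either comparison. With median ratios Folr1 stood at 0.02 and 0.11, Enpp2 at 0.15 and 0.34, and Cldn2 at 0.20 and 0.25. Kl stood at 0.83 and 0.87 and Kcnj13 at 0.78 and 0.76, while Aqp1, not called with TPM, stood at -0.16 and -0.05.

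**Figure D4:**
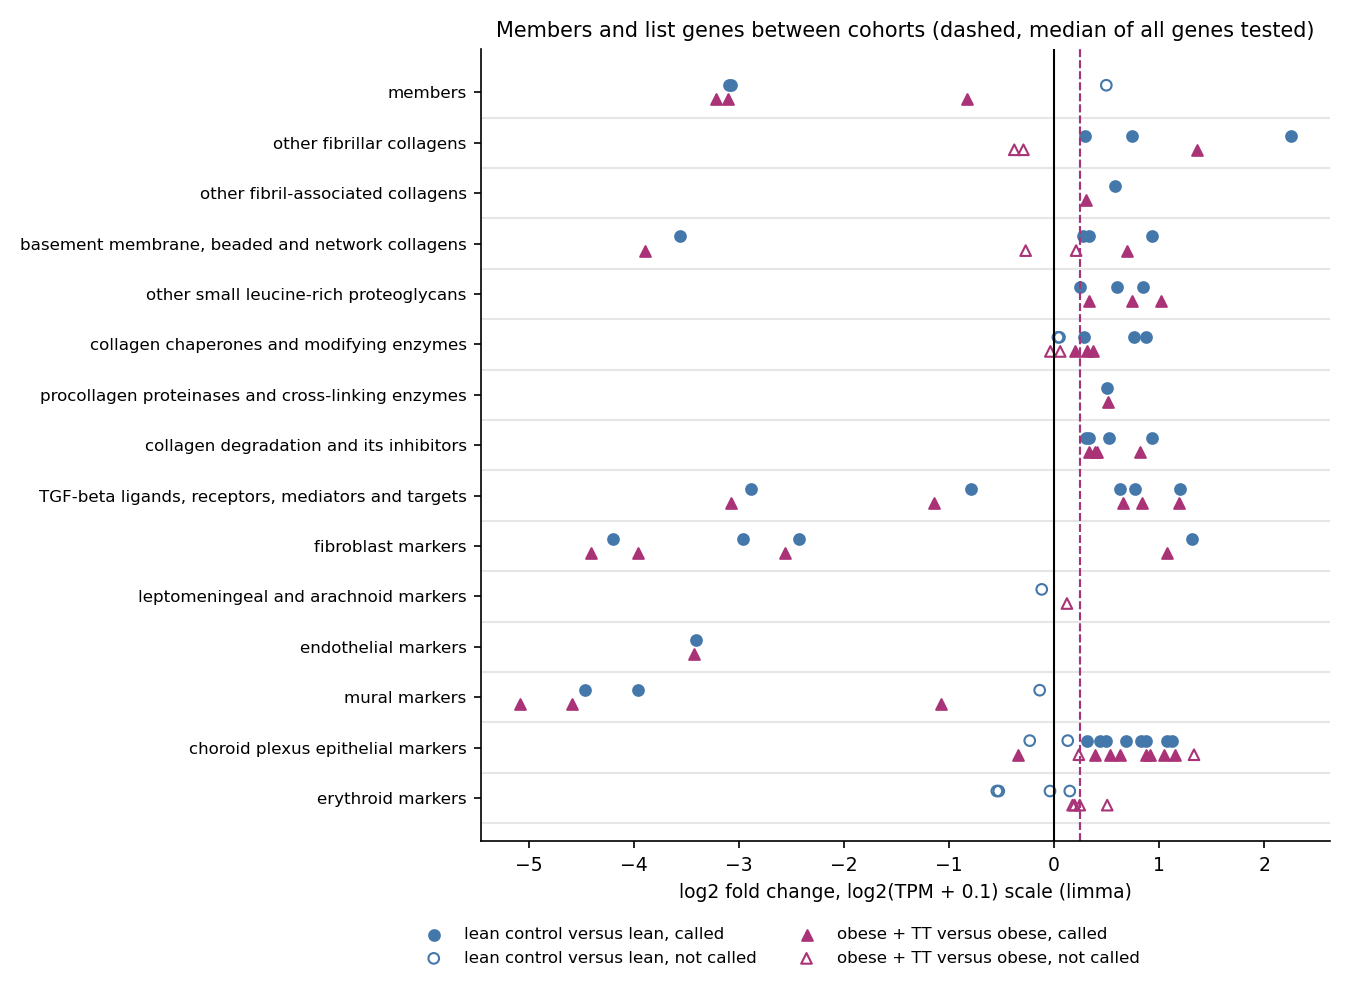
Log2 fold changes on the log2(TPM + 0.1) scale of the members and the list genes between lean control and lean rats (circles) and between obese + TT and obese rats (triangles), with filled symbols for genes called by limma and the median of all genes tested as dashed lines. Col1a1, Dcn, Col6a1, Ltbp4, Dpt, Vim, Clec3b, Plvap, Rgs5 and Tagln stood at -2.43 or below, while the other collagens and small leucine-rich proteoglycans stood near or above 0 between the lean groups.

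Finally, the covariation of the members across rats was examined within each cohort, since the cohorts differ in level. Each r pools the lean and the obese group of a cohort. None of the 6 relations passed a permutation test. In the 12 untreated rats, Pearson's r was 0.16 for Col1a1 and Dcn (p = 0.620, Spearman's rho 0.08, p = 0.800), -0.01 for Col1a1 and Col14a1 (p = 0.977, rho -0.18, p = 0.568) and 0.48 for Col14a1 and Dcn (p = 0.113, rho 0.37, p = 0.234). Without the 2 rats farthest from the median of the first gene, r was 0.21, -0.34 and 0.41. In the 8 injected rats, exact permutation tests gave r = 0.44 for Col1a1 and Dcn (p = 0.289, rho 0.36, p = 0.389), r = -0.27 for Col1a1 and Col14a1 (p = 0.586, rho -0.48, p = 0.243) and r = 0.12 for Col14a1 and Dcn (p = 0.785, rho -0.10, p = 0.840). Without the 2 farthest rats, r was 0.22, -0.24 and 0.44. Over the 6 relations, the Benjamini-Hochberg adjusted p from the permutation tests was 0.679 to 0.977 for r and 0.729 to 0.840 for rho. After the mean of each group was subtracted, r in the untreated rats was 0.34 for Col1a1 and Dcn, 0.35 for Col1a1 and Col14a1 and 0.46 for Col14a1 and Dcn. In the injected rats it was 0.71, 0.27 and -0.23 in the same order, given as a description. The same rats and libraries underlie all relations, and 12 or 8 rats cannot show a weak relation.

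The genes most like each member were sought among the 2549 or 2550 genes with a symbol and a mean of at least 1 TPM, by Pearson's r of log2 values over the 20 rats after the mean of each group was subtracted. These correlations are descriptions of the same libraries. For Col1a1 they were Hspa8, a cytosolic chaperone (r = 0.81), Vegfa, a growth factor for vessels (r = 0.80), and Erp44, an endoplasmic reticulum chaperone (r = 0.78). In obese rats 7, 11 and 12, Hspa8 was at 510.72, 514.22 and 582.63 TPM and in the other 3 at 400.47 to 422.09 TPM, the same split as for Col1a1. In the untreated rats, Col1a1 had an r over 0.5 with 28 of the 49 list genes. Among them were Sparc (r = 0.91) and Serpinh1 (r = 0.78), but also Tagln (r = 0.84) and the epithelial marker Kcnj13 (r = 0.79). Col1a1 had such an r with 36.6% of the 2549 genes with a symbol as well, so many named genes varied with it. In the injected rats r was 0.29 for Sparc and 0.65 for Serpinh1, and the epithelial marker Otx2 came closest of the list genes (r = 0.91).

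For Dcn the most alike genes were Rbm39 (r = 0.73) and Cstf3 (r = 0.68), both of RNA processing, and the ubiquitin-conjugating enzyme Ube2d3 (r = 0.66). Among the list genes in the untreated rats, Dpt (r = 0.71) and Ogn (r = 0.70) came closest to Dcn. Dcn had an r over 0.5 with 4 of the 49 list genes there, beside 13.7% of the 2549 genes with a symbol. In the injected rats r was 0.42 for Dpt and 0.56 for Ogn, and the epithelial marker Otx2 came closest (r = 0.79). The genes most like Col14a1 were Cd9, a membrane tetraspanin (r = 0.82), Ppp1r1a, a phosphatase inhibitor (r = 0.78), and Slc29a4, a monoamine transporter (r = 0.77). Within the untreated rats these 3 had r of -0.25, 0.02 and 0.03 with Col14a1, so their likeness rested on the injected rats. Cd9 was at 12.74 TPM in rat 13 and at 445.53 to 469.56 TPM in the other lean controls, the rat in which Col14a1 was low as well.

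**Figure D5:**
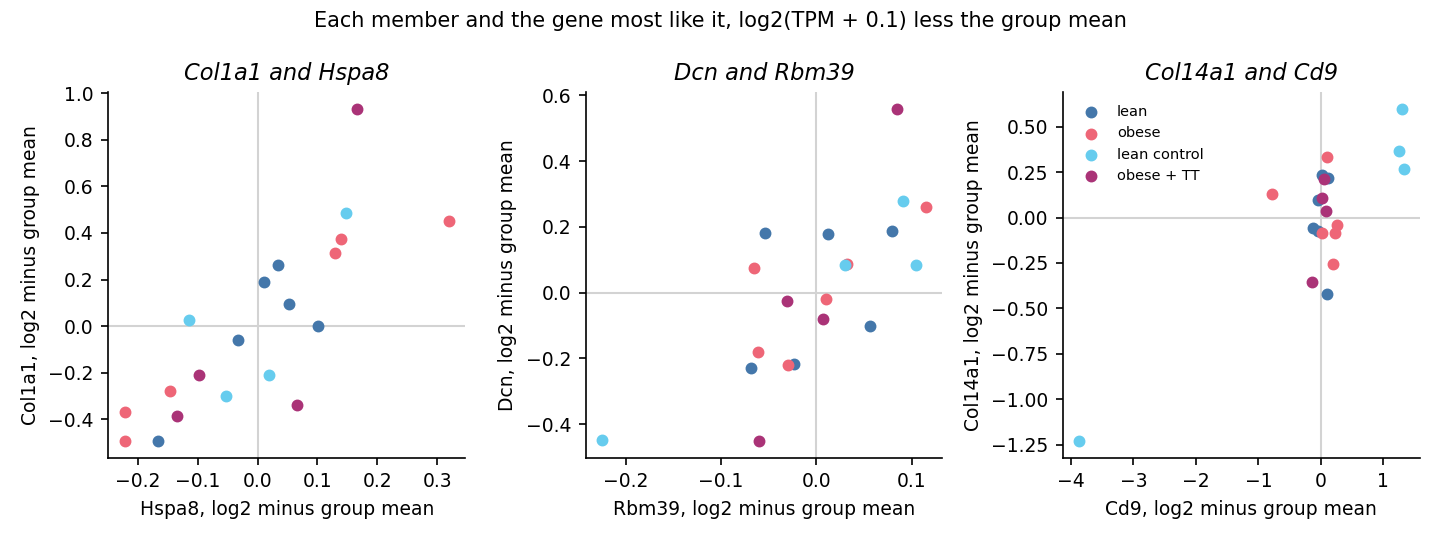
Col1a1 against Hspa8, Dcn against Rbm39 and Col14a1 against Cd9, each as log2(TPM + 0.1) minus the mean of its group, with 1 point per rat (n = 20). For Col1a1 and Hspa8 (r = 0.81), r was 0.92 in the untreated and 0.73 in the injected rats, among which rat 20 was highest for both. The points for Col14a1 and Cd9 (r = 0.82) hang on rat 13 at the lower left.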

How the data were processed

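Reads of 20 choroid plexus libraries were, per the study's methods and labels, aligned with STAR 2.7.9a to Rnor_6.0 with Ensembl annotation release 104, and RSEM 1.3.3 and DESeq2 are named in the submitters' processing notes. Which program made the deposited values is not given in the sources used here. The authors deposited TPM (each library sums to 1000000 within rounding) and FPKM (TPM times a factor for each library) for every rat. Counts were not used here, so the test ran on log2 values as planned. Ratios of low values between 190 pairs of libraries gave no whole reads (fullest bin 2.61 to 6.77% of genes). At most 0.463% of genes had identical TPM in a pair of 1 group, so no library was taken as a duplicate.

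Groups followed the labels. For each comparison, genes that averaged 0.1 TPM or more were kept, and log2(TPM + 0.1) was analysed with limma 3.58.1 (R 4.3.3; eBayes with trend, without robust), and a gene was called at a Benjamini-Hochberg adjusted p under 0.05 over all genes tested. Fold changes are on that scale, which understates those of low genes such as Col14a1. Exact two-sided permutation tests served for single genes, ratios and group pairs. Covariation used 100000 permutations for 12 rats and all permutations for 8. The test was checked on simulated data. The fits between cohorts had 6 against 4 libraries, and the interaction used all 20. P-values measure the spread between rats of 1 cohort each.

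Symbols came from the study's supplementary gene lists, which name abundant genes and genes the study listed from these libraries; only genes with a single identifier were used. Of 196 genes in 17 lists, 49 had an identifier. Collagen receptors, macrophage and brain parenchyma markers had none. Named genes are the members, up to 4 genes of each list with the smallest limma p in either within-cohort comparison, the 3 genes most like each member, and defining markers of a cell type. Members and lists were chosen with earlier results of these data known. Alternatives were the pseudocount, the filter, limma's trend and robust options, TPM without Ttr, median ratios, FPKM, 1 fit of all libraries, and each rat left out. No sequences are printed. Software was Python 3.11.15, pandas 2.3.3, NumPy, SciPy and matplotlib.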

Additional observations from a re-analysis of the deposited data

Results flagged for a closer look

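In the obese + TT group, rat 20 had a Col1a1 level of 1.47 TPM, while the other 3 rats lay at 0.53 to 0.61 TPM. The gap to the nearest rat took up nearly all of the range of the group. It was the only such case among 12 combinations of gene and group checked, of which chance sets apart about 1 in 20, or 0.6 here. Rat 20 also had the highest Dcn level of its group, at 13.85 TPM against 6.82 to 9.19 TPM. Without it, the Col1a1 log2 fold change of obese + TT against lean control rats was 0.19 in place of 0.51, and that between obese + TT and obese rats was -3.42 in place of -3.11.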

How the results depend on the processing

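No paired analysis was possible because the rats of the 4 groups carry different numbers and share no label that pairs them. Of 562 values under the alternatives run, 517 kept direction and side of the threshold, or moved by less than the limit set for a value with no test or a count; 26 moved by more, 14 changed sign and 5 newly passed the threshold. Beside 0 genes called, TPM divided by median ratios called 1 gene between obese and lean rats, 2 between obese + TT and lean control rats and 2 in the interaction; FPKM called 1 in the first and 2 in the interaction; 1 fit of all 20 libraries called 3 and 6. In the interaction, a minimum of 1 TPM and the robust option each called 1 gene and TPM without Ttr called 10. Leaving out 1 rat called 0 to 1, 0 to 25 and 0 to 14 genes, the upper values being without rat 13 in the last 2.

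Without rat 13, Col14a1 was called in each of the 3 results that use the lean control rats: its log2 fold changes over the rats left out were -1.92 to -1.31 (obese + TT against lean control), 0.30 to 0.91 (lean control against lean) and -1.73 to -1.12 (interaction). The interaction of Col1a1 changed sign, from -0.32 to 0.15, as did that of Dcn, from -0.32 upwards (0.012, above 0 only without rat 17). The ratio of Col1a1 to Dcn ran from 0.63 to 0.95 between obese + TT and lean control rats (past the threshold only without rat 14) and from -0.21 to 0.065 between obese + TT and obese rats (above 0 without rat 11 or 18). The ratio of Col14a1 to Dcn ran from -2.10 to -1.22. The correlation of Col1a1 and Dcn in untreated rats was -0.12 with median ratios. The cause of these changes was not tested. With a minimum of 1 TPM, Col14a1 left all fits.

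The study states a nominal sequencing output, but the number of reads of each library is unknown here. The counting error of low values such as those of Col14a1 was therefore not given, and 0.01 TPM is the smallest step of the deposited values.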

Other observations

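The factor that turns TPM into FPKM in the deposited values separated the cohorts. It was 1.11 to 1.22 in the untreated and 0.92 to 1.00 in the injected libraries. It depends on the mean length of the transcripts weighted by their abundance, and its part in the cohort differences of Col1a1 and Dcn was not tested beyond the repeat with FPKM, in which both fell by 3.34 on the log2 scale between lean and lean control rats.

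Rat 13, without which Col14a1 is called in the comparisons with lean control rats, stood apart from the other lean control rats in further genes. Pdgfra was at 39.33 TPM in rat 13 and at 69.33 to 77.23 TPM in the other 3, Ppp1r1a at 102.75 TPM against 252.7 to 291.51 TPM, and Slc29a4 at 32.17 TPM against 64.34 to 69.14 TPM. The obese + TT rats ran from 53.18 to 68.01 TPM for Pdgfra, from 126.21 to 186.72 TPM for Ppp1r1a and from 31.58 to 40.49 TPM for Slc29a4. Cd9 was at 12.74 TPM in rat 13 and at 412.86 to 479.84 TPM in the obese + TT rats. These genes were picked for their likeness to Col14a1 or as fibroblast markers.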
